A study of Canis lupus familiaris with 25 samples.

Results

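Liver-type genes were examined in hepatoid gland adenoma (HGA), a benign perianal tumor of the dog whose cells resemble hepatocytes under the microscope. The list names 39 genes of hepatocyte function, and 29 of them stand under that symbol in the deposited table of 24532 genes. The other 10 (TTR, FGG, F9, AMBP, ITIH1, ITIH3, ASGR1, KNG1, PLG and SLC10A1) were not found by name and were not analysed here. The question was whether cells that look like hepatocytes express hepatocyte genes, with the apocrine gland anal sac adenocarcinoma (AGASAC), a malignant gland tumor of the same site, as the comparison.

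The study sequenced the 3′ ends of mRNA from formalin-fixed, paraffin-embedded (FFPE) archive tissue with the QuantSeq 3′ kit, which gives about 1 read per transcript. The 25 samples were 10 HGA, 11 AGASAC primary tumors and 4 lymph node metastases of AGASAC, each from the dog of AGASAC primary tumor 1, 2, 3 or 4. The HGA came from dogs of 8 to 14 years (2 females, 3 neutered females, 4 males, 1 neutered male), the primary AGASAC from dogs of 8 to 12.5 years (2 females, 3 neutered females, 6 neutered males), and the metastases from dogs of 8 to 10 years. The dogs were of various breeds, no agent was given, every sample was cut as scrolls across the whole tumor after tissue next to it had been taken away, and neither normal hepatoid gland nor liver was sequenced in these samples.

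Hepatocytes make most of the proteins of blood plasma, among them albumin, apolipoproteins, clotting factors and carriers of iron, heme and retinol. They also carry the urea cycle, amino acid breakdown and gluconeogenesis, and a set of transcription factors led by HNF4A and the forkhead factors FOXA1, FOXA2 and FOXA3 keeps these genes active. Hepatoid glands are modified sebaceous glands of the perianal skin, and their name comes from the shape of their cells, not from a tie to the liver.

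Total counts per library lay between 1562347 and 6389555 in HGA, 2581453 and 4218340 in primary AGASAC, and 2857541 and 3289546 in the metastases. Levels are given as CPM, the counts scaled to a common library size. A count of 0 leaves room for up to 3 counts, which equalled 0.543 to 1.84 CPM in HGA, 0.729 to 1.05 CPM in primary AGASAC and 0.796 to 0.973 CPM in the metastases. These limits cover counting error only. Gland markers lay on the side of each tumor's label. The summed CPM of 16 hepatoid and sebaceous gland genes was 6035 to 18309 in HGA and 195 to 2090 in primary AGASAC, and that of 9 apocrine gland genes was 953 to 2604 in HGA and 7291 to 12586 in primary AGASAC. Of 10 lymph node markers, 10 exceeded 3 counts in at least 50% of the metastases, against 3 in HGA and 4 in primary AGASAC. Their summed level did not set the metastases apart, at 39.8 to 53.2 CPM beside 22.8 to 205 CPM in HGA and 16.8 to 86.1 CPM in primary AGASAC. HGA 10 held the lowest hepatoid and the highest apocrine sum of the HGA.

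The liver-type genes were at or near 0 in most of the HGA. A gene was counted as detected in a group when more than 3 counts were found in at least 50% of its libraries. By this rule 6 of the 29 genes were detected in HGA (APOA1, SERPINA1, ARG1, FOXA2, PCK1 and RBP4), 10 in primary AGASAC (APOA1, SERPINA1, FGA, F2, HPX, TF, CPS1, FOXA3, TDO2 and RBP4) and 13 in the metastases. The rule does not level the groups for size or depth, and the share of all genes that it detects in each group is not given here. With more than 3 counts required in every library, the numbers were 1, 4 and 4. With more than 10 counts in place of 3, HGA and primary AGASAC did not differ in number. APOA1, SERPINA1, FOXA2, PCK1 and RBP4 were then detected in HGA, as many genes as in primary AGASAC. In HGA, 13 of the 29 did not exceed 3 counts in any library and 5 had no count at all (ITIH2, CPS1, FOXA3, TDO2 and CRP). AFP, APOA2, APOB, APOH, HPD and CRP stayed at or under 3 counts in all 25 samples. Of the 29 genes, only APOA1 exceeded 3 counts in every HGA library.

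The summed level of the 29 genes was lower in HGA than in AGASAC. Its median was 51.3 CPM in HGA (32.4 to 103), 1052 CPM in primary AGASAC (521 to 2449) and 1613 CPM in the metastases (483 to 2813). The heme carrier HPX alone made up 72.5 to 95.0% of the sum in primary AGASAC. Without HPX the medians were 50.3, 127 and 109 CPM, and the ranges overlapped (32.4 to 103 in HGA, 47.2 to 293 in primary AGASAC).

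**Figure D1:**
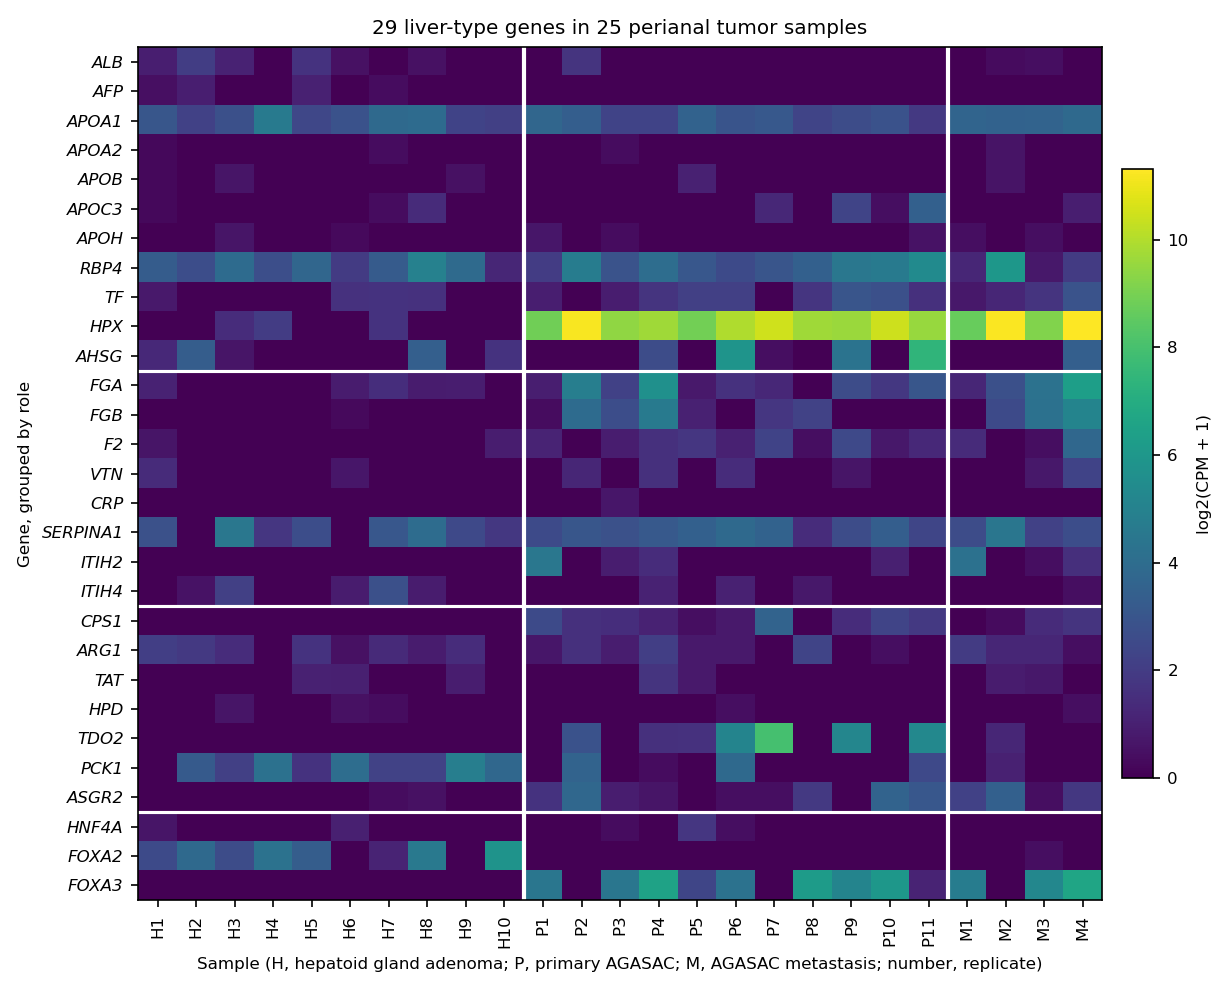
Level of the 29 liver-type genes (rows, grouped by role) in the 25 samples (columns; white lines part HGA, primary AGASAC and metastases), as log2(CPM + 1) by color. The HPX row is bright in all AGASAC samples and dark in HGA, FOXA2 and FOXA3 are filled on opposite sides, and the rows of ALB, AFP and HNF4A are dark in nearly all samples.

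**Figure D2:**
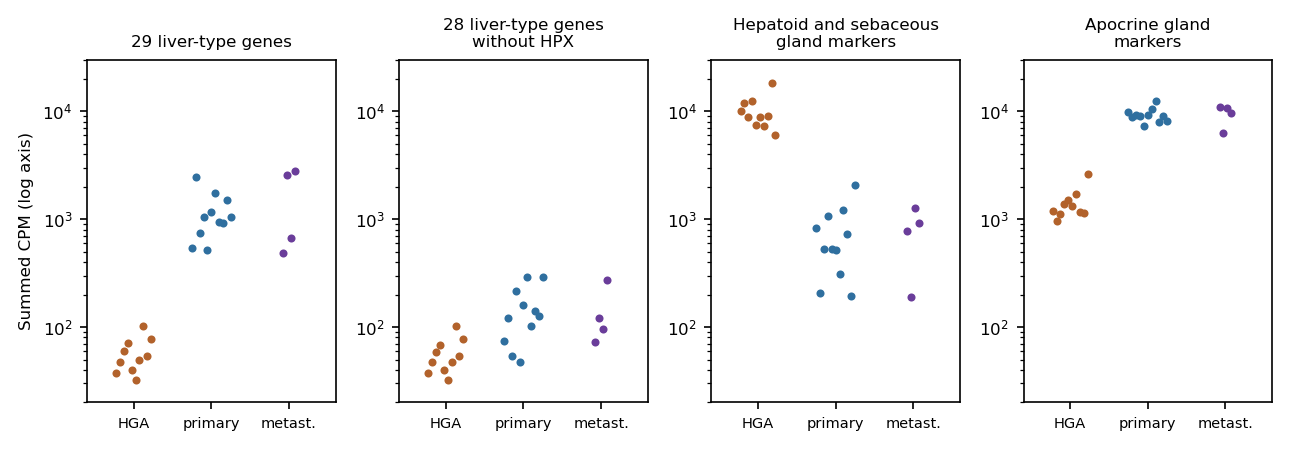
Summed CPM per sample on a log axis for the 29 liver-type genes, the same genes without HPX, 16 hepatoid and sebaceous gland markers and 9 apocrine gland markers; each point is 1 sample. HGA and AGASAC part in all panels but that without HPX, where they overlap.

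The comparison "HGA versus AGASAC" used edgeR's quasi-likelihood test on the 21 primary tumors. The thresholds for a call were a Benjamini-Yekutieli adjusted p up to 0.05 together with a log2FC beyond 1 in either direction, and positive values mark genes higher in HGA. The default filter on low counts kept 12070 genes and only 4 of the 29 liver-type genes, since the others did not reach about 10 counts in enough libraries. Of these 4, 0 were called higher, where 12.6% of all tested genes were, and 1 was called lower, where 12.5% of all tested genes were, and 1 had an unadjusted p under 0.05. DESeq2, which tested all 29, called 1 higher (8.51% of all genes) and 8 lower (9.36% of all genes), and 10 had an unadjusted p under 0.05. The edgeR fit with no filter on low counts called 1 higher (7.85% of all genes) and 7 lower (8.39% of all genes), and leaving out each of the 21 tumors in turn, a setting added after seeing the data, kept these calls in all fits but 1, for FGA.

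Among the carrier proteins of plasma, HPX separated the tumors. Hemopexin, its product, binds free heme in blood. HPX levels in HGA were 0 at the lowest, 0 at the median and 3.07 CPM at the highest (7 counts at most), against 464, 835 and 2327 CPM in primary AGASAC. The metastases of dogs 1 to 4 held 411, 2436, 572 and 2539 CPM. Every AGASAC sample lay above every HGA, and within its own library HPX ranked 21 to 298 among all genes in primary AGASAC. The mean was 0.691 ± 1.16 CPM (SD, n = 10) in HGA and 1001 ± 540 CPM (SD, n = 11) in primary AGASAC, and edgeR's quasi-likelihood test gave a log2FC of −10.64 (SE 0.70, Benjamini-Yekutieli adjusted p = 2.57e-10).

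The HPX difference was as large within RNA extraction batches. HPX was 0 to 3.07 CPM in 3 HGA and 699 to 1439 CPM in 3 primary AGASAC of batch 5, 0 CPM in 3 HGA and 835 to 1012 CPM in 2 primary AGASAC of batch 6, and 0 to 2.13 CPM in 2 HGA and 464 to 2327 CPM in 3 primary AGASAC of batch 8. The log2FC was −10.07, −14.53 and −10.09 in these batches, with edgeR adjusted p of 0.0229, 0.00417 and 0.120. Since no HGA of batch 6 had an HPX count, the size of −14.53 is not a measured fold. Genes taken as neighbours of HPX, without coordinates of this build, were also higher in AGASAC, but far below the level of HPX. ARFIP2 averaged 94.6 CPM in primary AGASAC and 26.6 CPM in HGA, APBB1 averaged 32.8 and 5.78 CPM, and TRIM3 averaged 16.8 and 5.39 CPM. The part of reads shared between neighbours was not tested.

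RBP4, the plasma carrier of retinol, and APOA1, the main protein of high-density lipoprotein, were detected in both tumors and were not called. RBP4 was 1.29 CPM at the lowest, 8.59 at the median and 30.4 at the highest in HGA, and 3.01, 10.1 and 41.3 CPM in primary AGASAC. The tumors overlapped over most of this range. In edgeR's quasi-likelihood test RBP4 had a log2FC of −0.52 (SE 0.48) and APOA1, at 8.61 ± 6.71 CPM in HGA and 6.58 ± 3.09 CPM in primary AGASAC (SD, n = 10 and 11), had a log2FC of 0.41 (SE 0.38), each with an adjusted p of 1.00.

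AHSG, which encodes the plasma protein fetuin-A, was high in single tumors. It was 0 at the lowest, 0.285 at the median and 9.86 CPM at the highest in HGA, and 0, 0 and 168 CPM in primary AGASAC. Among the metastases it was 9.58 CPM in dog 4 and 0 in the other 3. The highest value, in AGASAC primary tumor 11, came from 692 counts, and the tumors overlapped at 0. Without a filter on low counts its log2FC was −3.31 (SE 1.28, edgeR adjusted p = 0.483). AGASAC primary tumor 11 also held the highest APOC3 (10.2 CPM, 42 counts) and RBP4 of the primary AGASAC, together with their highest summed hepatoid markers (2090 CPM) and adipocyte markers (419 CPM), whose part in these values was not tested.

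Albumin and alpha-fetoprotein, the classical marks of the adult and the fetal liver cell, were close to absent. ALB was 0 CPM at the lowest, 0.409 at the median and 3.16 at the highest in HGA, with at most 7 counts and 3 of 10 libraries above 3 counts. In primary AGASAC it was 0, 0 and 2.29 CPM, all of it in AGASAC primary tumor 2, and the metastases held 0, 0.265, 0.322 and 0 CPM. AFP had at most 2 counts in HGA (0, 0 and 1.08 CPM) and none in AGASAC. Without a filter on low counts, edgeR's adjusted p was 1.00 for ALB (log2FC 1.76, SE 1.07) and 0.151 for AFP (log2FC 2.86, SE 0.83). TF, the plasma carrier of iron, averaged 0.694 ± 0.978 CPM in HGA and 2.54 ± 2.25 CPM in primary AGASAC (SD, n = 10 and 11) and was not called. The other apolipoproteins on the list, APOA2, APOB, APOH and APOC3, had medians of 0 CPM in HGA and in primary AGASAC.

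The clotting genes FGA, FGB and F2 were found mostly in AGASAC. FGA and FGB encode chains of fibrinogen, the precursor of fibrin. FGA was 0 CPM at the lowest, 0.408 at the median and 1.82 at the highest in HGA, and 0, 2.61 and 50.0 CPM in primary AGASAC. The metastases of dogs 1 to 4 held 1.30, 5.84, 18.0 and 78.9 CPM. HGA stayed at the low end of the AGASAC range, and the fit with no filter on low counts called FGA lower in HGA (log2FC −3.86, SE 0.92, edgeR adjusted p = 0.0201). This call was lost without AGASAC primary tumor 4 (edgeR adjusted p = 0.101). FGB had 1 count among all HGA and averaged 4.67 ± 7.75 CPM in primary AGASAC (SD, n = 11), at least 3.77-fold higher than the level that 3 counts per library would give in HGA. It was called lower in the same fit (log2FC −6.05, SE 1.25, edgeR adjusted p = 0.00481). Without AGASAC primary tumor 4 the bound was 2.19-fold.

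The fibrinogen genes were high in few tumors. FGA reached 50.0 CPM in AGASAC primary tumor 4 and 27.4 CPM in AGASAC primary tumor 2, which also held the highest FGB (24.2 and 14.4 CPM). Across the 11 primary AGASAC, log2(CPM + 1) of FGA and FGB gave a Pearson r of 0.59 (permutation p = 0.0547, Benjamini-Hochberg adjusted p = 0.219 over 4 relations), with Spearman's rho at 0.20 (permutation p = 0.561, adjusted p = 0.589). Without tumors 2 and 4, left out as the farthest from the median FGA level, r was −0.44, so the sign of r rested on these samples. Each extraction batch held too few primary AGASAC for a value of its own. F2, the gene of prothrombin, was at or under 3 counts in all HGA and averaged 1.67 ± 1.44 CPM in primary AGASAC (SD, n = 11), and DESeq2 called it lower in HGA (adjusted p = 0.0276) where edgeR without a filter did not (adjusted p = 0.0753). VTN, a plasma adhesion protein, had a median of 0 CPM in both tumors. Some clotting genes outside the list had higher means in HGA. F5, the gene of factor V, averaged 15.7 ± 19.5 CPM in HGA and 2.45 ± 3.77 CPM in primary AGASAC, and F12, that of factor XII, averaged 3.73 ± 3.00 and 1.22 ± 1.06 CPM. PROS1, which encodes protein S, averaged 6.50 ± 8.16 and 3.83 ± 3.20 CPM (SD, n = 10 and 11). The ranges of these genes overlapped. None passed the default filter, so the edgeR fit with that filter did not test them, and their values in the other fits are not given here.

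Protease inhibitors behaved unevenly. SERPINA1, which encodes alpha-1-antitrypsin, was detected in 8 of 10 HGA and all 11 primary AGASAC, at 6.42 ± 6.70 and 7.37 ± 3.49 CPM (SD, n = 10 and 11), with a log2FC of −0.19 (SE 0.57, edgeR adjusted p = 1.00). ITIH2, of the inter-alpha-trypsin inhibitor family, had no count in HGA and 72 counts in AGASAC primary tumor 1, against 6 at most in the other primary AGASAC. ITIH4, of the same family, reached 19 counts in HGA 7 and 4 at most in AGASAC. Neither ITIH2 (edgeR adjusted p = 0.139) nor ITIH4 (adjusted p = 1.00) was called without a filter on low counts.

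Of the enzymes, TDO2 and CPS1 were called lower in HGA with no filter on low counts, and ARG1, PCK1, TAT and HPD were not called. TDO2, the liver enzyme that opens the ring of tryptophan, had no count in the 10 HGA. In primary AGASAC it was 0 CPM at the lowest, 2.08 at the median and 247 at the highest, and the metastases of dogs 1 to 4 held 0, 1.33, 0 and 0 CPM. More than 3 counts were found in 7 of the 11 primary AGASAC, and AGASAC primary tumor 7, with 706 counts, stood far above the rest. The mean of 33 ± 72.6 CPM (SD, n = 11) was at least 26.6-fold higher than the level that 3 counts per library would give in HGA, and the fit with no filter called TDO2 lower in HGA (log2FC −9.67, SE 2.08, edgeR adjusted p = 0.0172). Without AGASAC primary tumor 7 the mean was 11.6 CPM and the bound 9.39-fold.

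CPS1, the entry enzyme of the urea cycle and the target of a common stain for hepatocytes, had no count in HGA. It was 0 CPM at the lowest, 1.78 at the median and 11.2 at the highest in primary AGASAC, where 8 of 11 tumors exceeded 3 counts. The metastases of dogs 1 to 4 held 0, 0.265, 1.61 and 2.24 CPM. Its mean of 2.75 ± 3.16 CPM (SD, n = 11) was at least 2.22-fold higher than the level that 3 counts per library would give in HGA, and the fit with no filter called it lower in HGA (log2FC −6.09, SE 1.07, edgeR adjusted p = 0.00301).

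ARG1, the last enzyme of the urea cycle, was low in all groups. It was 0 CPM at the lowest, 1.61 at the median and 3.26 at the highest in HGA, 0, 0.689 and 4.02 CPM in primary AGASAC, and 2.92, 1.33, 1.29 and 0.319 CPM in the metastases of dogs 1 to 4. The groups overlapped, with a log2FC of 0.30 (SE 0.81, edgeR adjusted p = 1.00 with no filter on low counts). TAT and HPD, which break down tyrosine, had medians of 0 CPM in HGA and primary AGASAC.

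PCK1, the key enzyme of gluconeogenesis, which fat cells also use to make glycerol, exceeded 3 counts in 9 of 10 HGA, 3 of 11 primary AGASAC and 1 of 4 metastases. It was 0 CPM at the lowest, 5.92 at the median and 27.2 at the highest in HGA, against 0, 0 and 13.8 CPM in primary AGASAC. The ranges overlapped, and without a filter on low counts PCK1 was not called (log2FC 1.77, SE 0.97, edgeR adjusted p = 1.00). Its log2FC was −1.03 (SE 1.69) within extraction batch 6 and 1.33 to 1.83 in the other settings that tested it, and the cause was not tested. Adipocyte markers differed between the groups as well, but not all in the same direction. Of 10 such genes edgeR tested 6. It called 4 higher in HGA (12.6% of all tested genes) and 1 lower (12.5% of all tested genes). The summed CPM of 10 such genes was 347 to 1605 in HGA and 31.4 to 419 in primary AGASAC, with 7 of the 10 over 3 counts in at least 50% of the HGA. Across the 10 HGA, log2(CPM + 1) of PCK1 and of this sum gave a Pearson r of 0.26 (permutation p = 0.470, adjusted p = 0.470), with Spearman's rho at 0.30 (permutation p = 0.406, adjusted p = 0.589), and r was 0.29 without HGA 2 and HGA 7. Since each sample is a mixture of cells, this relation cannot tell which cells the PCK1 counts came from, and the part of fat cells was not tested.

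ASGR2, a subunit of the asialoglycoprotein receptor of hepatocytes, never exceeded 1 count in an HGA and averaged 3.48 ± 4.71 CPM in primary AGASAC (SD, n = 11), at least 2.81-fold higher than the level that 3 counts per library would give in HGA. Its highest values were 12.7 CPM in AGASAC primary tumor 2 and 11.1 CPM in AGASAC primary tumor 10. The fit with no filter called it lower in HGA (log2FC −4.95, SE 1.07, edgeR adjusted p = 0.00795).

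The forkhead factors were found on opposite sides. FOXA2 was 0 CPM at the lowest, 7.15 at the median and 55.0 at the highest in HGA, and had no count in any primary AGASAC. The metastasis of dog 3 held 1 count and the other 3 held none. Above every AGASAC sample lay 8 of the 10 HGA, HGA 6 and HGA 9 had no count, and the highest value, 128 counts, came from HGA 10. The mean of 13.0 ± 16.7 CPM (SD, n = 10) was at least 13.9-fold higher than the level that 3 counts per library would give in primary AGASAC, and FOXA2 was the member called higher in HGA with no filter (log2FC 8.31, SE 1.32, edgeR adjusted p = 0.00143). Without HGA 10 the mean was 8.33 CPM and the bound 8.90-fold.

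FOXA3 had no count in the 10 HGA. In primary AGASAC it was 0 CPM at the lowest, 20.5 at the median and 91.4 at the highest, and the metastases of dogs 1 to 4 held 25.6, 0, 37.0 and 99.7 CPM. More than 3 counts were found in 9 of the 11 primary AGASAC, while AGASAC primary tumors 2 and 7 had none. The mean of 29.4 ± 32.0 CPM (SD, n = 11) was at least 23.7-fold higher than the level that 3 counts per library would give in HGA, and FOXA3 was called lower in HGA with no filter (log2FC −9.51, SE 1.52, edgeR adjusted p = 0.00115).

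Within extraction batch 6, both forkhead genes parted the tumors. FOXA2 was 4.88 to 13.6 CPM in 3 HGA and 0 in 2 primary AGASAC (log2FC 7.92, SE 1.48, edgeR adjusted p = 0.139), and FOXA3 was 0 in the HGA and 18.3 to 91.4 CPM in the primary AGASAC (log2FC −10.46, SE 1.38, edgeR adjusted p = 0.0638), so neither was called in these few samples. In batches 5 and 8 the tumors overlapped at 0. FOXA2 was 0 to 22.6 and 0 to 1.21 CPM in HGA and 0 in primary AGASAC, and FOXA3 was 0 in HGA and 0 to 33.3 and 0 to 20.5 CPM in primary AGASAC. FOXA3 had an edgeR adjusted p of 1.00 in batch 8, while FOXA3 in batch 5 and FOXA2 in both batches did not pass the filter. FOXA1, the remaining member of this family, was not on the list and was looked up after these values were seen. It reached 2 counts at the most in an HGA and 14.1 ± 16.0 CPM in primary AGASAC (SD, n = 11), where all 11 tumors exceeded 3 counts.

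HNF4A, the central regulator of hepatocyte genes, was near 0 throughout. It was 0 CPM at the lowest, 0 at the median and 1.02 at the highest in HGA, 0, 0 and 2.43 CPM in primary AGASAC, and 0 in all 4 metastases. At most 7 counts were found in any library, and at this depth no difference was detectable (log2FC −0.52, SE 1.08, edgeR adjusted p = 1.00 with no filter on low counts).

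HPX and FOXA3 gave no relation that held across the primary AGASAC. The tumors without a FOXA3 count, AGASAC primary tumors 2 and 7, held 2327 and 1439 CPM of HPX, the highest values of the 11. Across the 11 primary AGASAC, Pearson r of log2(CPM + 1) was −0.36 (permutation p = 0.272, adjusted p = 0.363) and Spearman rho was −0.21 (permutation p = 0.542, adjusted p = 0.589), and r was 0.45 without these tumors, so the sign rested on them. In the 10 HGA, FOXA2 and the summed hepatoid markers gave a Pearson r of −0.39 (permutation p = 0.272, adjusted p = 0.363), with Spearman's rho at −0.19 (permutation p = 0.589, adjusted p = 0.589), with r at 0.49 without HGA 9 and HGA 10, so here too the sign rested on the samples left out.

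**Figure D3:**
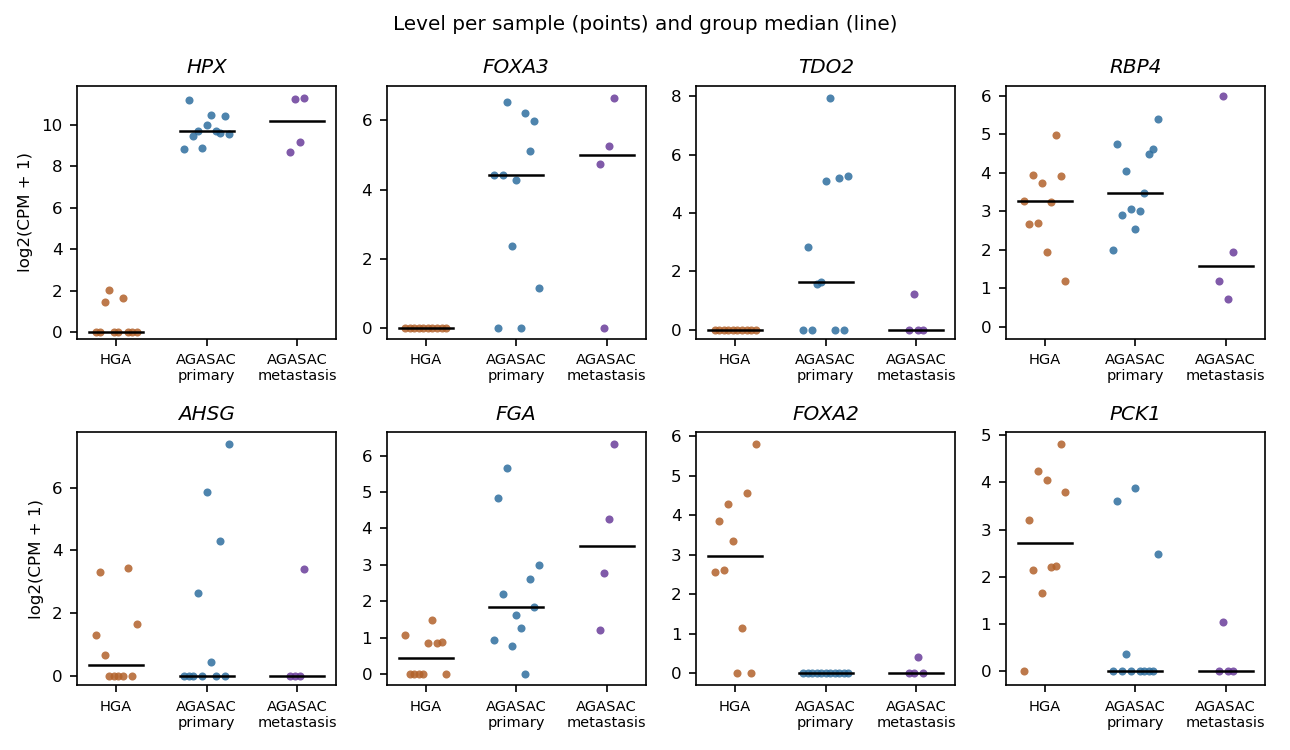
Level of 8 genes as log2(CPM + 1) in HGA (brown), primary AGASAC (blue) and AGASAC metastases (purple); points are samples and lines are group medians. HPX parts all HGA from all AGASAC, FOXA2 is above 0 in 8 of 10 HGA and at 0 in all primary AGASAC, FOXA3 and TDO2 are at 0 in all HGA, and RBP4 overlaps.

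**Figure D4:**
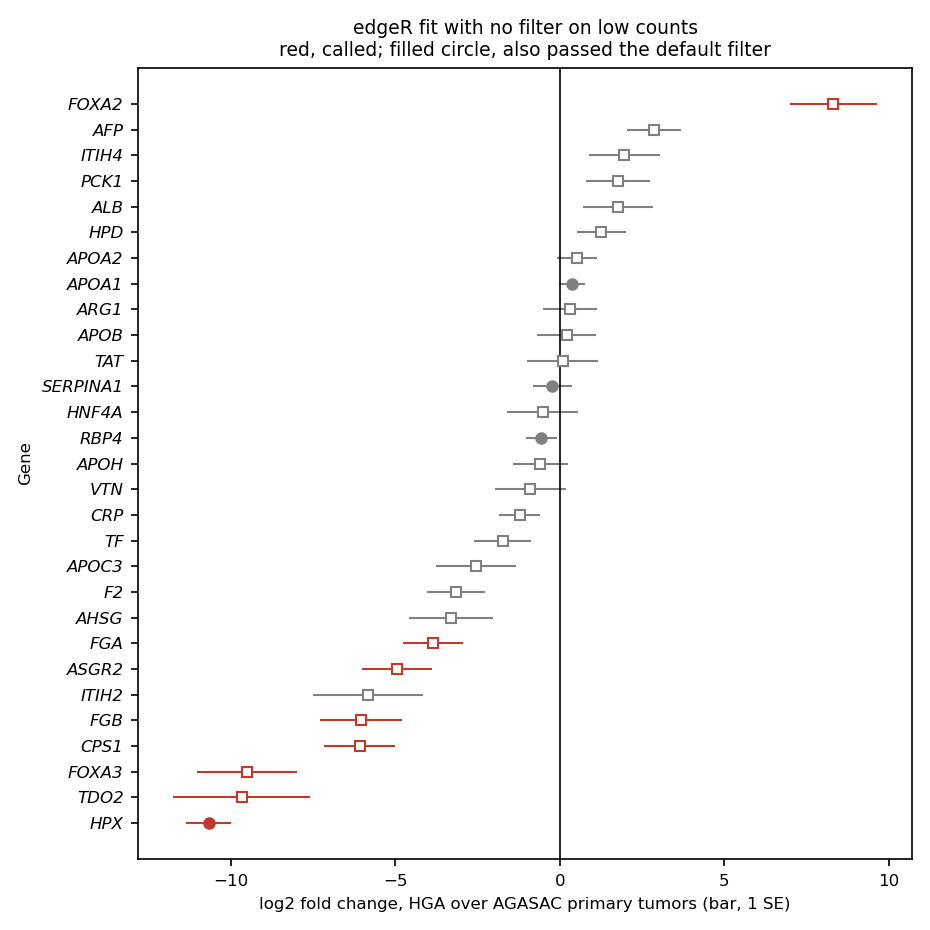
log2FC of HGA over primary AGASAC with 1 SE for the 29 genes, from the edgeR fit with no filter on low counts; red marks called genes and filled circles mark the 4 genes that passed the default filter. FOXA2 is the only red point above 0, and 7 red points lie below 0, from FGA to HPX.

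Next, each of the 4 metastases was set against the primary tumors of those dogs. Of the 29 genes, 7 were tested (HPX, APOA1, SERPINA1, RBP4, FGA, FGB and FOXA3). edgeR's quasi-likelihood test called 0 of the 7, and 0 had an unadjusted p under 0.05. Over all 12629 tested genes it called 0% in either direction, with 145 genes at an unadjusted p under 0.05. DESeq2 also called 0 liver-type genes, and 5 of all genes. In the edgeR fit without pairing, the log2FC was 0.47 (SE 0.72) for HPX, 0.69 (SE 0.42) for APOA1 and 0.27 (SE 1.38) for FOXA3, each with an edgeR adjusted p of 1.00. The fit with the dog as a block, which compares each metastasis with its own primary tumor, gave 0.28 (SE 0.32), 0.82 (SE 0.41) and 0.41 (SE 0.23), and also called 0 of the 7.

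Some liver-type genes were highest, among these 4 dogs, in both the primary tumor and the metastasis of the same dog. ITIH2 had 72 counts in the primary tumor and 55 in the metastasis of dog 1, and 6 at most in the other dogs. ASGR2 had 39 and 38 counts in dog 2, which also had no FOXA3 count in either sample, while the other 3 dogs had 68 to 329 FOXA3 counts in the primary tumor and 79 to 312 in the metastasis. FGA had 180 and 247 counts and FGB 87 and 103 counts in dog 4. Both genes were also found in dogs 2 and 3. There FGA had 84 and 22 counts in dog 2 and 12 and 56 in dog 3. FGB had 44 and 18 counts in dog 2 and 18 and 55 in dog 3. These are values of 4 dogs chosen after they were seen, and no test was made of them.

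Other liver-type genes differed between the primary tumor and the metastasis of a dog, among them RBP4, F2, SERPINA1 and PCK1. RBP4 was 62.6 CPM in the metastasis of dog 2 and 1.30, 0.643 and 2.88 CPM in those of dogs 1, 3 and 4, each below its own primary tumor (3.01, 6.52 and 15.6 CPM). Its log2FC of 0.44 (SE 1.27) turned to −2.97 without the metastasis of dog 2, with an edgeR adjusted p of 1.00 in both. F2 had 7 counts in the primary tumor and 40 in the metastasis of dog 4. In dog 2, SERPINA1 had 22 counts in the primary tumor and 77 in the metastasis, and PCK1 had 34 and 4.

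**Figure D5:**
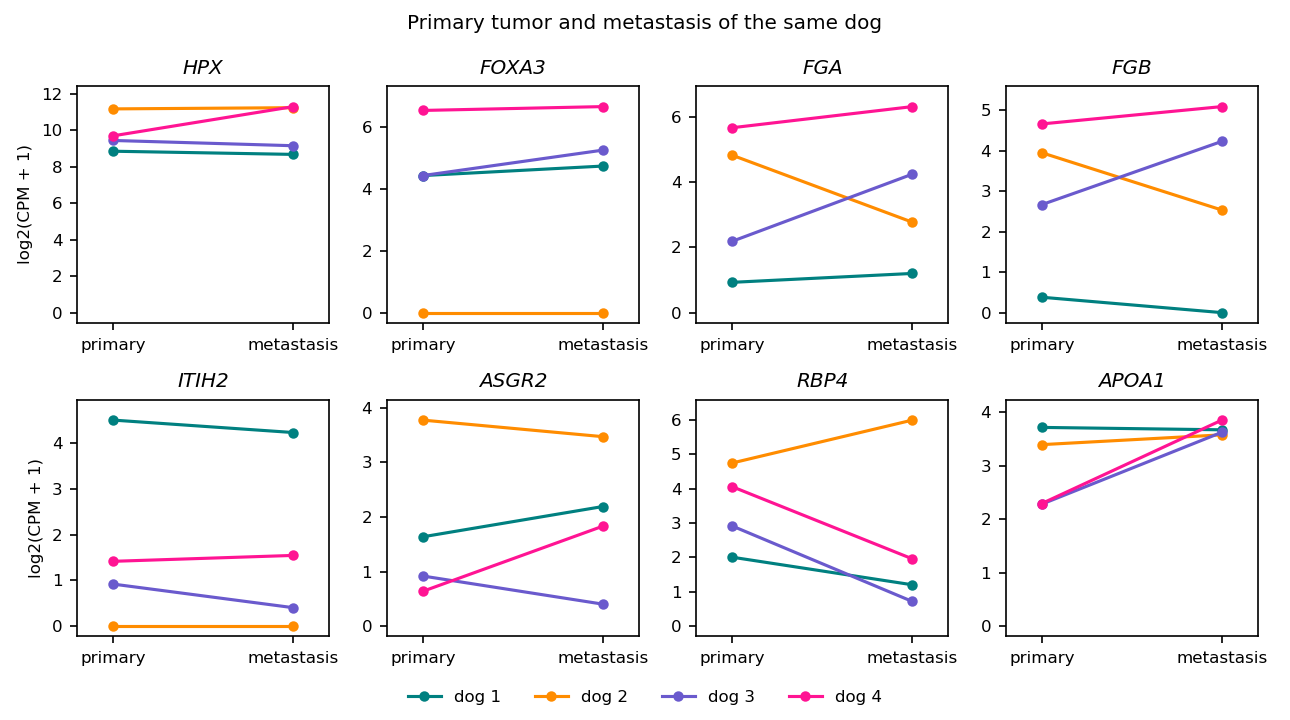
Level of 8 genes as log2(CPM + 1) in the primary tumor and the lymph node metastasis of the same dog; each colored line is 1 of 4 dogs. FOXA3 stays at 0 in dog 2, ITIH2 is highest in dog 1 in both samples, and RBP4 falls in 3 dogs and rises in dog 2.

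HGA and the metastases were also compared, with the same HGA as above, so the values stand side by side with the first comparison and are no repeat of it. Of 6 genes tested, 0 were called higher in HGA (8.40% of all tested genes) and HPX was called lower (7.69% of all tested genes), with a log2FC of −11.22 (SE 0.88, edgeR adjusted p = 1.38e-06). FOXA2 had a log2FC of 6.81 (SE 1.80, adjusted p = 0.0827) and PCK1 of 4.87 (SE 1.35, adjusted p = 0.108), and neither was called. With no filter on low counts, 0 were called higher (4.21% of all genes) and 5 lower (5.17% of all genes), namely HPX, FGA, FGB, ASGR2 and FOXA3. DESeq2 called 2 higher, FOXA2 and PCK1 (6.94% of all genes), and 4 lower (5.97% of all genes).

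A wider set of 99 other liver genes was read in the same way. Of these, 71 were found and 21 tested in HGA versus AGASAC primary tumors, with 5 called higher in HGA (12.6% of all tested genes) and 5 called lower (12.5%). The median log2FC was −0.33, beside −0.03 over all tested genes. DESeq2 called 7 higher (8.51% of all genes) and 11 lower (9.36% of all genes) of 70 tested. Together with the 29 genes, 32 of 100 were detected in HGA and 42 in primary AGASAC, by the same rule that does not level the groups for depth. The summed levels of these 100 genes overlapped, at 677 to 5754 CPM (median 1378) in HGA and 1439 to 4264 CPM (median 2662) in primary AGASAC. The other metabolic enzymes alone summed to a median of 711 CPM in HGA and 455 CPM in primary AGASAC, again with overlap (388 to 984 and 223 to 898 CPM).

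Among the largest rises of the tested genes were those of an apolipoprotein gene and a transcription factor. APOC1, which encodes a lipoprotein component, was 5.59 CPM at the lowest, 89.5 at the median and 4160 at the highest in HGA, against 4.16, 28.8 and 102 CPM in primary AGASAC (log2FC 4.79, SE 1.03, edgeR adjusted p = 0.00492). CEBPA, a factor of hepatocytes, fat cells and sebaceous cells, was 57.7 to 264 CPM in HGA and 1.70 to 17.6 CPM in primary AGASAC without overlap (log2FC 4.14, SE 0.32, edgeR adjusted p = 4.57e-09).

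The 3 largest falls of the tested genes were SLC38A4, CP and F11. SLC38A4, an amino acid transporter, averaged 0.193 ± 0.320 CPM in HGA and 83.8 ± 74.0 CPM in primary AGASAC (log2FC −8.37, SE 0.96, edgeR adjusted p = 1.63e-06). CP, which encodes the copper protein ceruloplasmin, averaged 0.709 ± 0.945 and 161 ± 205 CPM (log2FC −7.76, SE 0.94, edgeR adjusted p = 3.62e-06). F11, the gene of clotting factor XI, averaged 0.357 ± 0.530 and 57.5 ± 45.8 CPM (log2FC −6.84, SE 0.66, edgeR adjusted p = 1.27e-07). A pair of genes that did not pass the default filter also had far lower means in HGA. The edgeR fit with that filter did not test them, and their values in the other fits are not given here. BHMT, an enzyme that turns homocysteine to methionine, averaged 0.145 ± 0.318 CPM in HGA and 88.7 ± 98.4 CPM in primary AGASAC, at least 71.6-fold higher than 3 counts per library would give in HGA. SERPINF2, which encodes the plasmin inhibitor alpha-2-antiplasmin, averaged 0.0992 ± 0.196 and 53.8 ± 65.5 CPM, at least 43.4-fold higher by the same measure. By role, 1 transcription factor of 2 tested was called higher and 1 lower, 1 and 2 of 6 secreted proteins, 3 and 0 of 9 metabolic enzymes, 0 and 2 of 2 transporters and receptors, and 0 of 2 oncofetal genes.

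Each sample is a mixture of cells, so fewer cells of a type and less RNA per cell cannot be told apart. Markers of other cells were summed as well. Those of squamous epithelium parted the tumors, while the ranges of macrophage, fibroblast and skeletal muscle markers overlapped. The skeletal muscle sums still differed, with a median of 8.39 CPM in HGA and 119 CPM in primary AGASAC. Squamous epithelium markers summed to 732 to 1767 CPM in HGA and 65.7 to 254 CPM in primary AGASAC, macrophage markers to 104 to 341 and 197 to 566 CPM, fibroblast markers to 1286 to 5904 and 1032 to 8206 CPM, and skeletal muscle markers to 3.39 to 26.3 and 8.99 to 916 CPM. Their part in the levels of the liver-type genes was not tested, nor was that of the 4 intact males, who were all in HGA.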

How the data were processed

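The authors trimmed reads with Cutadapt, aligned them with STAR to CanFam3.1, and counted them on genes with featureCounts, in a second round with genes extended by 2 kb at the 3′ end; multi-mapped reads were kept and split evenly. Versions and the strand setting are not given in the sources used here, so reads of a gene and of an overlapping or antisense partner may not be told apart. The values used are the deposited counts, whole numbers per gene and sample without normalization, in 25 columns, all of which were used. The table also holds size-factor normalized counts and the authors' own comparison (fold changes and p-values), which were not used. It lists 24532 genes, 8449 of them by LOC number.

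Groups came from the labels, each replicate is a tumor of another dog, and the labels tie each metastasis to the primary tumor of the same dog. Deviations from the mean of these 4 primary tumors and of the 4 metastases correlated within a dog (r 0.450 to 0.743 over 12173 genes in 4 of 4 dogs, at most 0.0880 with another dog). Centering on so few samples by itself lowers the correlations with other dogs. No libraries were alike within sampling noise. Extraction batches and file naming series came from the study's supplement.

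The analysis used edgeR 4.0.16 under R 4.3.3 (TMM, filterByExpr with minimum count 10 and minimum total 15, quasi-likelihood test, Benjamini-Yekutieli adjustment over all tested genes) and, as an alternative, DESeq2 1.42.0 without shrinkage. The SE is the log2FC divided by the root of F. CPM were computed with TMM factors of all 25 samples together. Lower bounds set the mean against 3 counts per library. Correlations used 100000 permutations, two-sided, with Benjamini-Hochberg adjustment; the 4 relations were chosen after the values were seen. The script was tested on simulated data.

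The genes, the lists and the tests were chosen with earlier results of these data known. All 29 genes are accounted for, with values by sample for those called in edgeR with the default filter, the 6 with the highest mean CPM, and ALB, AFP, CPS1, ARG1 and HNF4A. Others with values of their own (FOXA1, FOXA2, PCK1, FGB, F2, ASGR2, ITIH2, ITIH4, SERPINA1, APOA1, APOC3, TF, F5, F12, PROS1, BHMT and SERPINF2) were picked after their values were seen. Of the other liver genes, the tested ones with the largest changes in each direction are named, except 1 that is not reported here. No sequences or coordinates are printed, since no genome of this build was used here.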

Additional observations from a re-analysis of the deposited data

Results flagged for a closer look

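Within HGA and within the metastases, 24 sets of values were checked, each of a gene or of the summed liver-type genes. Of these, 9 had a sample whose gap to the nearest other was large for the range of the group. The primary AGASAC were not checked in this way. Chance alone would flag about 1 in 20 if values were normally distributed, which low CPM with many values at 0 are not. In HGA, RBP4 was 30.4 CPM in HGA 8 (next 14.3), APOA1 was 24 CPM in HGA 4 (next 14.4), FOXA2 was 55.0 CPM in HGA 10 (next 22.6) and HNF4A was 1.02 CPM in HGA 6 (next 0.543). HGA 10 also had the lowest summed hepatoid markers of the 10 HGA, 6035 CPM. In the metastases, the sample of dog 2 stood apart for RBP4 at 62.6 CPM (next 2.88), SERPINA1 at 20.4 CPM (next 5.43), TDO2 at 1.33 CPM and PCK1 at 1.06 CPM (the other 3 at 0), and it held the highest summed fibroblast markers, 13173 CPM. The metastasis of dog 4 stood apart for AHSG at 9.58 CPM, with the other 3 at 0, and its primary tumor held 5.28 CPM. The part of these other values was not tested.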

How the results depend on the processing

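HPX was called lower in HGA than in primary AGASAC in 34 of 35 alternative settings, at a log2FC of −14.53 to −10.07. The value of −14.53 came from batch 6, where no HGA had an HPX count, so its size is not a measured fold. Within extraction batch 8 the log2FC was −10.09 with an edgeR adjusted p of 0.120, in 2 HGA and 3 primary AGASAC. The count of liver-type genes called in this comparison, 1, was 9 with DESeq2, 8 with no filter on low counts, 5 with at least 10 counts in at least 5 samples, 2 with all 15 AGASAC samples, 7 with all 25 samples in one fit, 0 within extraction batch 8, and 2 without HGA 4 and HGA 10 together, a setting chosen after seeing the data. Other settings let other numbers of the 29 genes through the filter. The count of other liver genes, 10, was 18 with DESeq2, 15 with no filter, 2 within batch 5, 2 within batch 8, 6 within naming series A and 16 without HGA 4 and HGA 10; leaving out 1 tumor at a time it was 6 to 15, lowest without AGASAC primary tumor 4, 5 or 11. All genes called, 3032, were 262, 637 and 338 within batches 5, 6 and 8, where fewer samples were tested. Library size alone in place of TMM moved the median log2FC of all genes by −0.30 and the share of calls that were higher from 50.2 to 32.8%; RLE moved the median by −0.03. Leaving out 1 tumor at a time, SERPINA1 stayed between −0.58 and −0.02. Signs of genes not called turned for SERPINA1 (0.03 within batch 5, 0.21 within series A, 0.01 without HGA 4 and HGA 10), RBP4 (0.51 within batch 5) and APOA1 (−0.01 within batch 6, −0.10 within batch 8). In metastases versus primary tumors, no setting called a liver-type gene; all genes called were 5 with DESeq2 and 1 with the replicate block, under which RBP4 turned to −0.98. The block changed no call of a liver-type gene. Leaving out 1 sample at a time, log2FC ran from −1.31 to 1.31 for FGA (−0.07, −0.02 and −1.31 without primary tumors 1 and 3 and metastasis 4), −0.71 to 1.58 for FOXA3 (−0.14 and −0.71 without primary tumor 2 and metastasis 4), −0.47 to 0.68 for SERPINA1 and −2.97 to 1.05 for RBP4 (both lowest without metastasis 2). In HGA versus metastases, the 1 liver-type gene called became 6 with DESeq2, 5 with no filter, 3 with Benjamini-Hochberg, 5 with all 25 samples in one fit, 3 without metastasis 1 and 2 without metastasis 2; all genes called, 2124, became 3536 with Benjamini-Hochberg; leaving out 1 metastasis at a time, SERPINA1 ran from −0.68 to 0.46 and RBP4 from −1.10 to 2.68 (both positive without metastasis 2). The number of detected genes was 1, 4 and 4 in HGA, primary AGASAC and metastases when every library had to exceed 3 counts. With more than 10 counts it was 5 in primary AGASAC and 7 in the metastases. By that rule HGA had as many as primary AGASAC, namely APOA1, SERPINA1, FOXA2, PCK1 and RBP4. Without HPX, the median sum was 127 CPM in primary AGASAC and 109 CPM in metastases. The causes of these changes were not tested. Depth limits the low genes: 3 counts equal up to 1.84 CPM in the shallowest HGA.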
